A study of Mus musculus with 28 samples.

Results

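Mesenchyme was 1 of 12 cell types that the study annotated in mouse embryoid bodies (EBs), aggregates of differentiating embryonic stem cells. Its members were taken by the deposited cell type name, in the libraries of days 3.5 to 5. They numbered 1991 of the 27135 cells of those libraries (7.34%), and the table held 31596 cells in all. At day 3, 0 of 4461 cells carried the name, which allows a share of up to 0.0672% (3 cells taken as the limit of a count of 0). Of the 1991 cells, 316 were Eomes-KD and 1675 (84.1%) were WT.

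RNA and accessible chromatin were sequenced from single nuclei (10x Genomics multiome). Every library came from a Runx1Venus Eomes-mCherry-degron ESC line (clone G9 in the names of the exp2 libraries), so WT cells carry the reporter and the tagged Eomes allele too. Eomes-KD EBs received 100 nM dTAG-13, which makes the cell degrade the tagged protein, and WT EBs received DMSO, in both cases from day 3. The study's text gives day 4 as the end of the treatment, whereas its design text on GEO runs to day 5, so libraries of days 4.5 and 5 are described here by day only. The 2 experiments, exp1 and exp2, were separate differentiations, and paired values below are in that order. Each condition had 2 libraries at day 3.5, 2 at day 4, 1 at day 4.5 (exp1) and 1 at day 5 (exp2). With 1 line and 1 library per experiment, day and condition, p-values rest on the spread between libraries of this line. In tests over days, that spread also holds any change of the difference between days. The main tests did not pair libraries by experiment.

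Extraembryonic mesoderm leaves the primitive streak early in gastrulation and lines the yolk sac, amnion and chorion, and it forms the allantois, the precursor of the umbilical vessels. Mesenchyme is the loose, migratory form of such mesoderm and surrounds the vessels and membranes with connective and contractile cells. Known markers of it are Hand1, a transcription factor needed in extraembryonic mesoderm, Postn, which encodes the matrix protein periostin, and Tagln, which encodes the actin-binding protein transgelin. Eomes encodes a T-box factor that acts in the streak as mesoderm and endoderm form. The table used here has no gene values, so neither these markers nor the loss of EOMES was checked.

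The name was therefore checked against labels that the authors had transferred from an atlas of mouse gastrulation, each with a score, the share of the 25 nearest atlas cells that carry the label. The largest label in the type was ExE mesoderm (835 cells, 41.9%), followed by Mesenchyme (517 cells, 26.0%) and Mixed mesoderm (458 cells, 23.0%), an early mesoderm of the atlas. The atlas label Mesenchyme was largely found here, since 517 of its 609 cells at days 3.5 to 5 (84.9%) had the deposited type name. ExE mesoderm was not, with 835 of its 4558 cells (18.3%) in mesenchyme and 2273 (49.9%) in posterior mesoderm. The median atlas score was 0.64 in mesenchyme, against 0.72 in posterior mesoderm, 0.72 in allantois precursors and 1 in allantois cells. Labels and scores derive from the RNA of the cells, and the types from their RNA and chromatin together with the transferred labels, so these counts describe the name and do not test it.

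All 1991 cells were in 1 of the 18 clusters that the authors built, and that cluster held 1993 cells, the other 2 being primordial germ cells. No split into clusters could thus be compared between conditions. Depth differed by experiment: median RNA counts per mesenchyme cell were between 14492 and 21427 in the exp1 libraries of days 4 and 4.5, and between 10267 and 10650 in the exp2 libraries of days 4 and 5. Of the cell barcodes in the table, 607 occurred in more than 1 library. Among mesenchyme cells 97 had such a barcode, and 2 barcodes were mesenchyme in both of their libraries.

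Mesenchyme was nearly absent at day 3.5. From day 4 it was between 2.16% and 6.27% of cells in Eomes-KD, whereas in WT it reached 33.1% and 36.9% at day 4 and made up less at days 4.5 and 5. At day 3.5 it made up 0.533% (10 of 1875 cells) and 0.188% (5 of 2663) of Eomes-KD libraries, against 0.368% (9 of 2443) and 0.176% (13 of 7391) of WT libraries. The conditions overlapped at that day. At day 4 the Eomes-KD shares were 5.78% (84 of 1453 cells, 95% Wilson interval 4.69 to 7.10) and 2.16% (64 of 2966, 1.69 to 2.75). The WT shares at day 4 were 33.1% (478 of 1443, 30.7 to 35.6) and 36.9% (1041 of 2818, 35.2 to 38.7). Both Eomes-KD libraries thus lay far under both WT libraries, with means of 3.97% ± 2.56 in Eomes-KD and 35.03% ± 2.70 in WT (SD, n = 2 each). The values at day 4.5, with 1 library per condition, were 6.27% (108 of 1722, 5.22 to 7.52) in Eomes-KD and 18.7% (83 of 445, 15.3 to 22.5) in WT. At day 5 the values were 3.82% (45 of 1177, 2.87 to 5.08) in Eomes-KD and 6.90% (51 of 739, 5.29 to 8.96) in WT. These intervals cover counting error only, and a share of cells gives no absolute cell number.

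**Figure D1:**
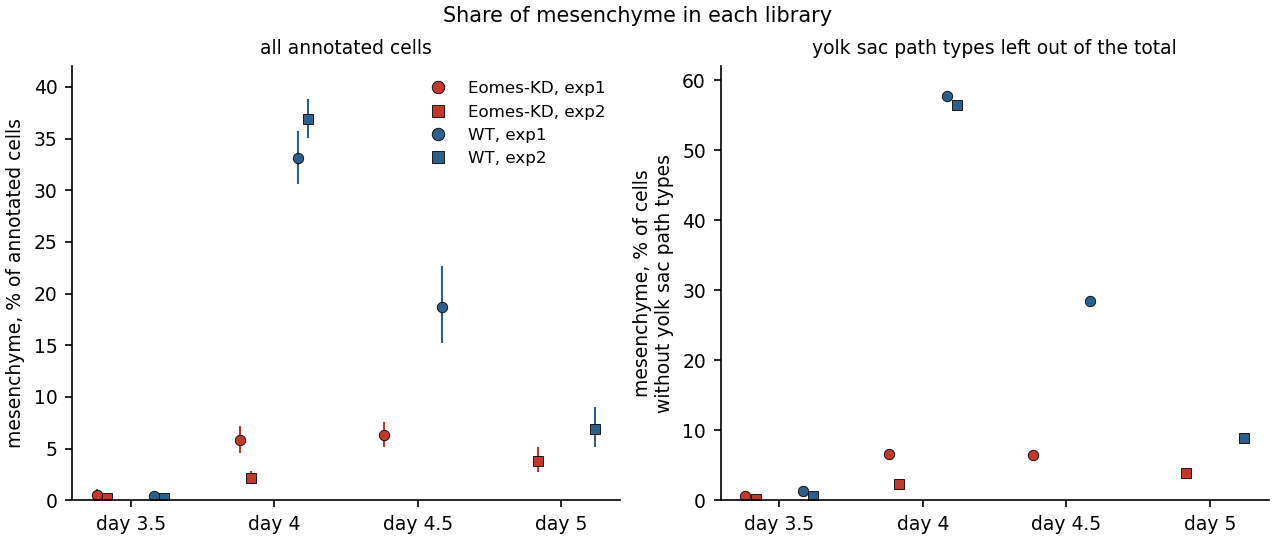
Mesenchyme as a percent of all annotated cells (left, with 95% Wilson intervals as vertical lines) and of the cells left when EOd early mesoderm, HE precursors, HE and blood progenitors are taken out (right), for each of 12 libraries by day. Eomes-KD is red and WT blue, circles are exp1 and squares exp2. At day 4 on the left, Eomes-KD libraries stand at 5.78% and 2.16%, below 33.1% and 36.9% in WT.

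The counts of all types were tested together with edgeR's quasi-likelihood test. Over the days, mesenchyme was lower in Eomes-KD by -1.52 on the log2 scale (SE 0.56, adjusted p = 0.0211, 6 libraries each). This call was lost with TMM factors (-1.28, adjusted p = 0.0592), with DESeq2 (-0.42, adjusted p = 0.590) and with limma on arcsine square root shares (adjusted p = 0.0661), and without either library of day 4.5 (adjusted p = 0.0965 without Eomes-KD and 0.0964 without WT, edgeR). DESeq2 scaled libraries by size factors from the counts of the types and not by total cells, so its values are not differences in the share of all cells. Mesenchyme was 1 of 8 types called out of 12 (66.7%), 5 of them lower in Eomes-KD (41.7%), so being called did not set it apart. Of 6 pairs of the same day and experiment, 4 were lower in Eomes-KD, and both pairs of day 3.5 were not. By day, the log2 difference was 0.44 (SE 0.84, adjusted p = 0.724, edgeR) at day 3.5 and -3.15 (SE 0.74, adjusted p = 0.0496) at day 4. It was -1.57 (SE 1.00, adjusted p = 0.319, edgeR) at day 4.5 and -0.85 (SE 1.00, adjusted p = 0.579) at day 5, where each condition had 1 library and borrowed the spread of the other days. DESeq2 turned the direction at these days, to 1.84 at day 4.5 and 0.57 at day 5 (adjusted p of 0.199 and 0.746), and limma called day 4.5 as lower in Eomes-KD (adjusted p = 0.0294). The day 4 difference was among 4 calls in 42 tests of type and day (9.52%), of which 2 were lower in Eomes-KD (4.76%). With the experiment as a block it was -3.36 (adjusted p = 0.000148, edgeR), and 16 of the 42 tests were then called. The call at day 4 was lost without any 1 of 7 libraries, namely the 4 libraries of day 3.5, both WT libraries of day 4 or the exp2 Eomes-KD library of day 4 (adjusted p between 0.0541 and 0.138, with differences of -2.60 to -3.23).

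Whether the difference itself changed with the day was tested as an interaction, which was not called for mesenchyme or any other type (0 of 12, 0%). The unadjusted p of mesenchyme was 0.0778 and the adjusted p 0.934 (edgeR), or 0.0500 with the experiment as a block. No type had an unadjusted p under 0.05. An exact permutation test of the percent of cells, with labels permuted within days, gave a mean over days of 3.61% in Eomes-KD and 15.2% in WT, a difference of -11.6 points (two-sided p = 0.0694, 144 arrangements, the smallest p being 0.0139). The difference was -13.2 points within exp1 and -12.6 within exp2.

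Other types took up different parts of the total in the conditions. Hematoendothelial (HE) precursors, HE and blood progenitors belong to the yolk sac path in the study. Early mesoderm with the code EOd in the table was counted with them here, although the study's text does not use that code. With those types left out of the total, mesenchyme made up 6.64% and 2.28% of the Eomes-KD libraries at day 4, against 57.8% and 56.5% of the WT libraries. All 6 pairs were then lower in Eomes-KD (permutation test, exact p = 0.0278), including day 3.5 (0.608% and 0.197% in Eomes-KD, 1.36% and 0.556% in WT). The edgeR difference over days became -2.33 (adjusted p = 0.000264). The types left out were mostly fewer in Eomes-KD in these same data. Leaving them out cut the exp2 libraries of day 3.5 from 7391 to 2338 cells in WT, and from 2663 to 2537 in Eomes-KD. WT shares thus rise more by construction, and these p-values are not separate support for a lower share. With EOd cells kept in the total, an alternative chosen after the data were seen, the day 4 shares were 6.60% and 2.27% in Eomes-KD, against 56.0% and 55.0% in WT. At day 3.5 they were then 0.557% and 0.190% in Eomes-KD and 0.448% and 0.203% in WT, so 5 of 6 pairs were lower (permutation test, exact p = 0.0556), and the edgeR difference over days was -1.96 (adjusted p = 0.0177). The direction at day 3.5 thus depended on the total used. Both of these totals kept types with more cells in Eomes-KD. Posterior mesoderm had 631 and 2043 cells in Eomes-KD and 119 and 398 in WT at day 4. Allantois cells numbered 809 in Eomes-KD and 344 in WT at day 5. Shares of a total without those types were not computed, so the later differences are known only for the totals given.

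Each condition was also followed over time. Eomes-KD mesenchyme rose by 3.47 on the log2 scale between days 3.5 and 4 (SE 0.81, adjusted p = 0.0201, edgeR), when 4 of 11 types rose (36.4%). Without the exp2 Eomes-KD library of day 3.5 this step lost its call (2.87, adjusted p = 0.0816), as it did without either WT library of day 4 (adjusted p = 0.0506 for both). WT mesenchyme rose by 7.07 in the same step (SE 0.91, adjusted p = 0.00299, edgeR), when 4 of 12 types rose (33.3%). Later steps were not called in Eomes-KD (0.67 from day 4 to 4.5 and -0.71 from day 4.5 to 5, adjusted p of 0.558 and 0.570, edgeR). They were not called in WT either (-0.91 and -1.43, adjusted p of 0.426 and 0.288, edgeR). Day 4.5 came from exp1 and day 5 from exp2, so day and experiment cannot be told apart in the last step.

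The makeup of mesenchyme was compared in the 8 libraries of days 4 to 5 with at least 20 mesenchyme cells (301 Eomes-KD and 1653 WT cells). The atlas label ExE mesoderm, given to cells of the extraembryonic membranes, was the main label in Eomes-KD. It held 76.2% (64 of 84 cells) and 59.4% (38 of 64) of Eomes-KD mesenchyme at day 4, against 19.7% (94 of 478) and 51.4% (535 of 1041) in WT. At day 4.5 it held 59.3% (64 of 108) in Eomes-KD and 8.43% (7 of 83) in WT, and at day 5 it held 35.6% (16 of 45) in Eomes-KD and 33.3% (17 of 51) in WT. It was higher in Eomes-KD in all 4 pairs, by 53.7 points on average within exp1 and 5.10 within exp2. The 2 WT libraries of day 4 differed more from each other than the conditions did within exp2.

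The atlas label Mesenchyme went the other way in 3 of 4 pairs. It held 7.14% (6 of 84 cells) and 10.9% (7 of 64) of Eomes-KD mesenchyme at day 4, against 36.4% (174 of 478) and 22.8% (237 of 1041) in WT. At day 4.5 it held 11.1% (12 of 108) in Eomes-KD and 57.8% (48 of 83) in WT, whereas at day 5 it held 35.6% (16 of 45) in Eomes-KD and 29.4% (15 of 51) in WT. The difference averaged -38.0 points within exp1 and -2.84 within exp2. Mixed mesoderm was lower in Eomes-KD in 3 of 4 pairs as well. It held 10.7% and 7.81% of Eomes-KD mesenchyme at day 4 (9 and 5 cells), against 37.2% and 18.5% in WT (178 and 193 cells). At day 4.5 it held 14.8% in Eomes-KD and 14.5% in WT, and at day 5 it held 4.44% in Eomes-KD and 29.4% in WT. In posterior mesoderm, pooled over libraries, Mixed mesoderm was lower in Eomes-KD as well (10.0%, against 23.0% in WT).

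**Figure D2:**
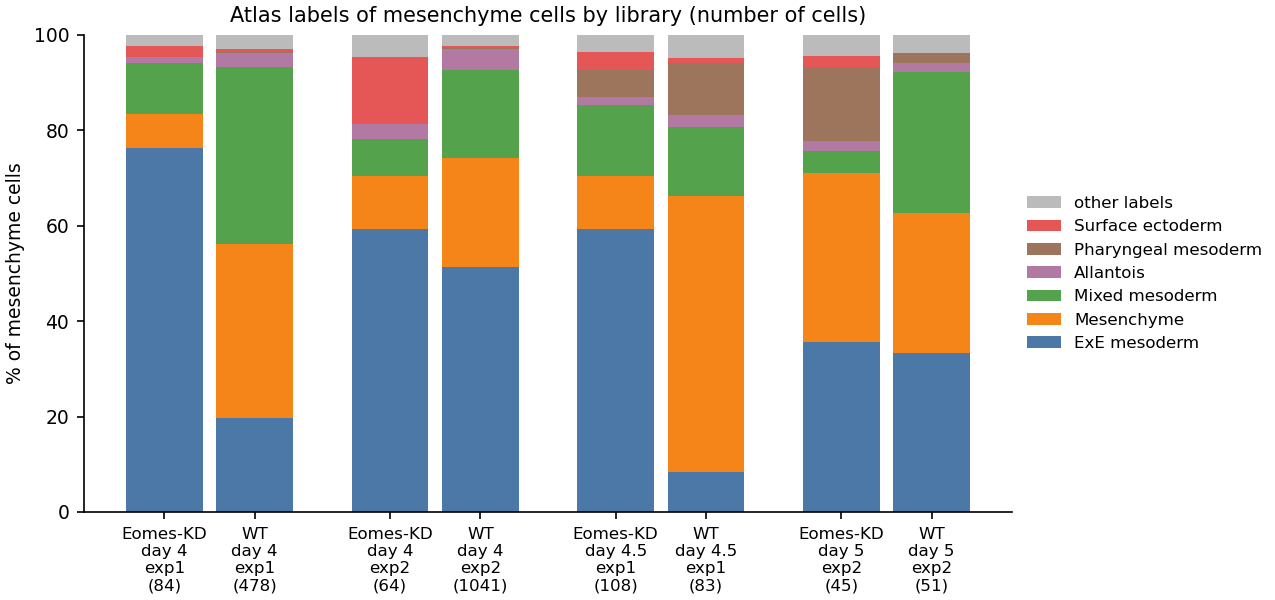
Atlas labels of mesenchyme cells in the 8 libraries with 20 or more of them, as a percent of the mesenchyme cells of the library (number in parentheses), with Eomes-KD beside WT of the same day and experiment. ExE mesoderm is the tallest part in 3 of 4 Eomes-KD libraries and ties with Mesenchyme at 35.6% in that of day 5, and in WT it ranges between 8.43% and 51.4%.

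In edgeR's quasi-likelihood test of the labels, 5 of 9 were called (55.6%). ExE mesoderm was higher in Eomes-KD (1.14, SE 0.49), and Mesenchyme (-1.41, SE 0.52) and Mixed mesoderm (-1.34, SE 0.54) were lower, each with adjusted p = 0.0483 (edgeR). With the experiment as a block these 3 had adjusted p = 0.0852 (edgeR) and 1 of the 9 labels was called. TMM factors also removed the 3 calls (adjusted p between 0.0524 and 0.0736, edgeR). Without either exp2 library of day 4, Eomes-KD or WT, 0 of the labels were called (edgeR). Over all types at days 3.5 to 5, cells labelled ExE mesoderm were posterior mesoderm in 61.2% of 3130 cells in Eomes-KD and 25.1% of 1428 in WT, and mesenchyme in 5.81% in Eomes-KD and 45.7% in WT.

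The label left under the block was Surface ectoderm, the outer epithelial layer of the embryo, in 28 cells over days 3.5 to 5. It held 2 of 84 and 9 of 64 cells of Eomes-KD mesenchyme at day 4 (2.38% and 14.1%), against 2 of 478 and 4 of 1041 in WT (0.418% and 0.384%). Later it held 4 of 108 cells in Eomes-KD and 1 of 83 in WT at day 4.5, and 1 of 45 in Eomes-KD and 0 of 51 in WT at day 5. At days 4 to 5 Eomes-KD libraries were all above WT libraries (log2 difference 3.73, SE 0.81, adjusted p = 0.000419, edgeR, or 0.00697 with the block). Intermediate mesoderm, described below, was the only other atlas label without overlap between conditions. The separation of Surface ectoderm rests on 1 of 45 Eomes-KD cells at day 5 against 1 of 83 WT cells at day 4.5. Both counts are within the limit of 3 cells. Without the exp2 Eomes-KD library of day 4, with 9 of the cells, the adjusted p was 0.0983 (edgeR). These cells had a median RNA count of 21011 and a median atlas score of 0.86, against 12282 and 0.64 for cells labelled ExE mesoderm. These medians pool libraries of both experiments, and by library those of ExE mesoderm cells lay between 9105 and 20909 RNA counts, with 535 of the 835 cells in the WT library of day 4 in exp2 (10929). The contrast thus mixes label and experiment, and the part of depth in this label was not tested. At days 3.5 to 5 the label was given to 316 cells of all types, 154 of them in early mesoderm with the code EOi.

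Pharyngeal mesoderm, the mesoderm of the head arches and of part of the heart, held 0 of 148 cells in Eomes-KD at day 4 (which allows up to 2.03%) and 0.418% and 0.288% in WT. At day 4.5 it held 5.56% in Eomes-KD and 10.8% in WT, and at day 5 it held 15.6% in Eomes-KD and 1.96% in WT (adjusted p = 0.895 over days, edgeR). Mesenchyme held 28 of the 32 cells with this label at days 3.5 to 5. Intermediate mesoderm, the source of kidney and gonads, held 6 Eomes-KD cells and 5 WT cells and was called (2.41, SE 1.03, adjusted p = 0.0483, edgeR), but not with the block (adjusted p = 0.0852). No library had more than 3 of these cells, so each count is within the limit of 3 cells. The label was also more frequent in Eomes-KD in posterior mesoderm, with 478 of 2864 cells (16.7%) against 13 of 564 in WT (2.30%). Allantois held 6 cells (1.19% to 3.13%) in Eomes-KD and 62 (1.96% to 4.32%) in WT and was not called (-0.57, SE 0.76, adjusted p = 0.565, edgeR).

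The few mesenchyme cells of day 3.5 were mostly Mixed mesoderm, with 4 of 10 and 5 of 5 cells in Eomes-KD and 9 of 9 and 10 of 13 in WT. Surface ectoderm held as many in the exp1 Eomes-KD library (4 of 10), and 1 of 13 cells in the exp2 WT library. ExE mesoderm held 0 of the cells in any of the 4 libraries of day 3.5. Over days 3.5 to 5, labels of ectoderm, endoderm or primitive streak were given to 22 of 316 cells in Eomes-KD (6.96%) and 11 of 1675 in WT (0.657%). Of these, 20 in Eomes-KD and 8 in WT were Surface ectoderm.

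The extended atlas, a later and finer set of labels, called most mesenchyme cells of either condition lateral plate mesoderm, a source of the heart and body wall. Of 835 cells with the first atlas label ExE mesoderm, 800 were lateral plate mesoderm, as were 497 of 517 labelled Mesenchyme and 295 of 458 labelled Mixed mesoderm. It held 91.7% and 76.6% of Eomes-KD mesenchyme at day 4, 85.2% at day 4.5 and 84.4% at day 5. The WT shares were 82.2% and 83.0% at day 4, 67.5% at day 4.5 and 92.2% at day 5, which overlapped with Eomes-KD (0.07, SE 0.40, adjusted p = 0.861, edgeR). The difference was 13.6 points within exp1 and -7.07 within exp2.

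The extended label Mesenchyme was given to 19 cells, all of them WT. It held 0 of 301 cells in Eomes-KD, which allows up to 0.997%. In WT it held 3 of 478 and 2 of 1041 cells at day 4, 14 of 83 (16.9%) at day 4.5 and 0 of 51 at day 5. It was the 1 extended label called of 7 (14.3%, adjusted p = 0.0498, edgeR), and 2 had an unadjusted p under 0.05. The label passed the filter on cell counts through WT cells alone, 14 of the 19 in the library of day 4.5. The call is therefore not taken as support for a difference between conditions. The call was lost with DESeq2 (adjusted p = 0.520). Without the Eomes-KD or the WT library of day 4.5, or the exp2 Eomes-KD library of day 4 (adjusted p = 0.0570), 0 extended labels were called (edgeR). Nascent mesoderm, the first mesoderm to leave the streak, held 3.57%, 0%, 1.85% and 0% of Eomes-KD mesenchyme at day 4 (exp1, exp2), day 4.5 and day 5, against 10.9%, 7.30%, 2.41% and 3.92% of WT mesenchyme. It was lower in all 4 pairs, which passed with the block (-1.91, adjusted p = 0.0192, edgeR) but not without it (-1.85, SE 0.96, adjusted p = 0.149). With the block 3 of the 7 extended labels were called, the third being Non-neural ectoderm, named here after its values were seen, with 9 cells in Eomes-KD and 5 in WT.

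The extended label Allantois held 1.19% to 2.22% of Eomes-KD mesenchyme and 0% to 6.92% of WT (adjusted p = 0.402, edgeR). Paraxial mesoderm, the source of the somites, held 0% to 7.81% in Eomes-KD and 0% to 2.41% in WT (adjusted p = 0.201, edgeR). Amniotic ectoderm was given to 7 of 64 cells (10.9%) in the exp2 Eomes-KD library of day 4, and to 2 WT cells, too few to test.

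The transfer also gave each cell an atlas stage. Eomes-KD mesenchyme was matched less to the early stages at day 4: E7.25 held 14.3% and 4.69% in Eomes-KD and 52.7% and 32.8% in WT. At day 4.5 it held 8.33% in Eomes-KD and 4.82% in WT, and at day 5 it held 0% of 45 cells in Eomes-KD and 47.1% of 51 cells in WT. E8.0 went the other way in all 4 pairs, with 47.6% and 51.6% in Eomes-KD and 7.95% and 35.3% in WT at day 4. At day 4.5 E8.0 held 27.8% in Eomes-KD and 12.0% in WT, and at day 5 it held 31.1% in Eomes-KD and 15.7% in WT. None of the 7 stages passed the test (0%), although 1 had an unadjusted p under 0.05 (edgeR), namely E7.0 with 1 Eomes-KD cell and 23 WT cells (adjusted p = 0.156). E7.25 (-2.05, SE 1.05) and E8.0 (1.15, SE 0.55) had adjusted p = 0.221 (edgeR).

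**Figure D3:**
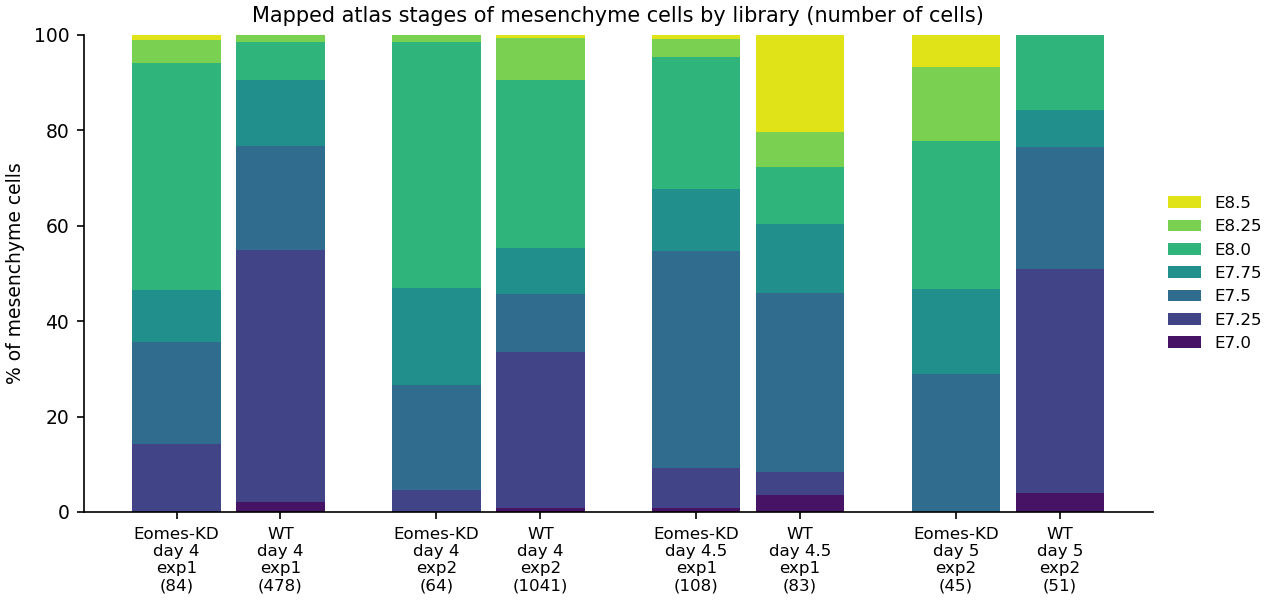
Atlas stages, in embryonic days (E), of mesenchyme cells in the 8 libraries with 20 or more of them, as a percent of the mesenchyme cells of the library (number in parentheses), with Eomes-KD beside WT of the same day and experiment. Stages E7.0 and E7.25 together are the larger share in WT in both pairs of day 4 and at day 5, and are near each other at day 4.5 (9.26% in Eomes-KD and 8.43% in WT).

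The middle and late stages showed no common direction. E7.5 held 21.4% to 45.4% in Eomes-KD and 12.2% to 37.3% in WT, and E7.75 held 10.7% to 20.3% in Eomes-KD and 7.84% to 14.5% in WT. E8.25 held 1.56% to 15.6% in Eomes-KD and 0% to 8.74% in WT. E8.5 held 0% to 6.67% in Eomes-KD and 0% to 20.5% in WT, the last in the library of day 4.5. Mean embryonic day over the cells of a library was 7.78 and 7.81 in Eomes-KD and 7.44 and 7.69 in WT at day 4, 7.68 in Eomes-KD and 7.83 in WT at day 4.5, and 7.88 in Eomes-KD and 7.46 in WT at day 5. WT mesenchyme thus mapped earlier at day 5 than at day 4.5, in libraries of different experiments. Stage differed by label: cells labelled Mixed mesoderm averaged 7.29, Mesenchyme 7.59 and ExE mesoderm 7.81 embryonic days.

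On the UMAP that the authors computed, a map of the cells without a unit, mesenchyme of WT lay nearest to posterior mesoderm (1.54 between centres) and allantois precursors (2.31). Median UMAP 1 was 2.37 and 2.04 in Eomes-KD and 2.94 and 2.50 in WT at day 4, 3.23 in Eomes-KD and 3.42 in WT at day 4.5, and 2.37 in Eomes-KD and 3.65 in WT at day 5. It was lower in Eomes-KD in all 4 pairs, towards posterior mesoderm. The medians of the conditions lay 0.755 and 0.611 apart at day 4, 0.411 at day 4.5 and 1.36 at day 5, against 0.346 between the Eomes-KD libraries and 0.481 between the WT libraries of day 4. Among the 25 nearest cells on the map, 70.5% were mesenchyme and 17.2% posterior mesoderm for Eomes-KD cells, against 84.7% and 7.71% for WT cells. At day 4, 32.1% and 37.5% of Eomes-KD mesenchyme cells lay nearer to the WT centre of posterior mesoderm than to any other, against 3.56% and 9.89% of WT cells. This share was 6.48% in Eomes-KD and 0% of 83 cells in WT at day 4.5, and 15.6% in Eomes-KD and 0% of 51 cells in WT at day 5. The centres and neighbours were dominated by WT mesenchyme, so these shares are given with no test.

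**Figure D4:**
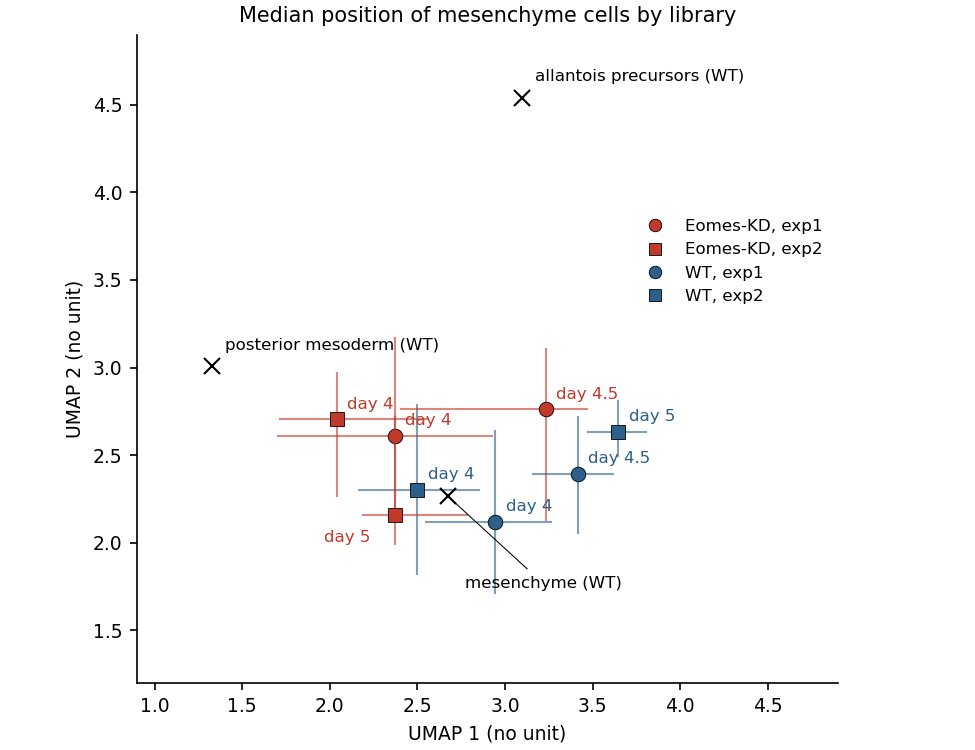
Median position of mesenchyme cells on the authors' UMAP (axes without a unit) in the 8 libraries with 20 or more of them, with lines for the middle 50% of the cells of a library. Red is Eomes-KD and blue WT, circles are exp1, squares exp2, and crosses mark centres of WT types. Within each day and experiment the Eomes-KD median is left of the WT median, by 0.182 at day 4.5 and 1.28 at day 5.

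Measures per cell were compared as library values, and 0 of 10 were called (0%) or had an unadjusted p under 0.05 in the exact permutation test within days. With 8 libraries that test has 24 arrangements and a smallest two-sided p of 0.0833, so it cannot pass the threshold. UMAP 1 reached that smallest p (2.60 in Eomes-KD and 3.26 in WT, adjusted p = 0.667, permutation), and UMAP 2 did not (2.53 in Eomes-KD and 2.41 in WT, p = 0.667, permutation). Mean embryonic day was 7.79 in Eomes-KD and 7.62 in WT, higher in 3 of 4 pairs (p = 0.333, permutation). Taken as a difference from the other cells of the same library, mean embryonic day was -0.258 in Eomes-KD and -0.259 in WT, higher in 2 of 4 pairs. The higher value is thus not particular to mesenchyme.

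Median RNA counts were 17156 and 10400 in Eomes-KD and 21427 and 10650 in WT at day 4. They were 17691 in Eomes-KD and 14492 in WT at day 4.5, and 10284 in Eomes-KD and 10267 in WT at day 5. Genes per cell ranged between 3940 and 5181 in Eomes-KD and between 3884 and 5563 in WT. Both measures overlapped, and at day 4 they differed more between experiments than between conditions. Mitochondrial percent was 7.82 and 6.27 in Eomes-KD and 6.86 and 4.28 in WT at day 4, 5.93 in Eomes-KD and 6.66 in WT at day 4.5, and 3.32 in Eomes-KD and 1.78 in WT at day 5. Ribosomal percent ranged between 8.10 and 11.4 in Eomes-KD and between 7.54 and 10.8 in WT, and it was higher in Eomes-KD in 3 of 4 pairs. The doublet score was lower in Eomes-KD in all 4 pairs, with means of 0.200 in Eomes-KD and 0.245 in WT (p = 0.167, permutation).

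Median atlas label scores were 0.72 in both Eomes-KD libraries and 0.64 in both WT libraries of day 4. They were 0.62 in Eomes-KD and 0.68 in WT at day 4.5, and 0.60 in Eomes-KD and 0.52 in WT at day 5. The other cells of the same libraries had medians between 0.72 and 1 in Eomes-KD and between 0.68 and 0.88 in WT. Extended label scores ranged between 0.72 and 0.84 in Eomes-KD and between 0.60 and 0.76 in WT, higher in Eomes-KD in 3 of 4 pairs (p = 0.250, permutation).

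**Figure D5:**
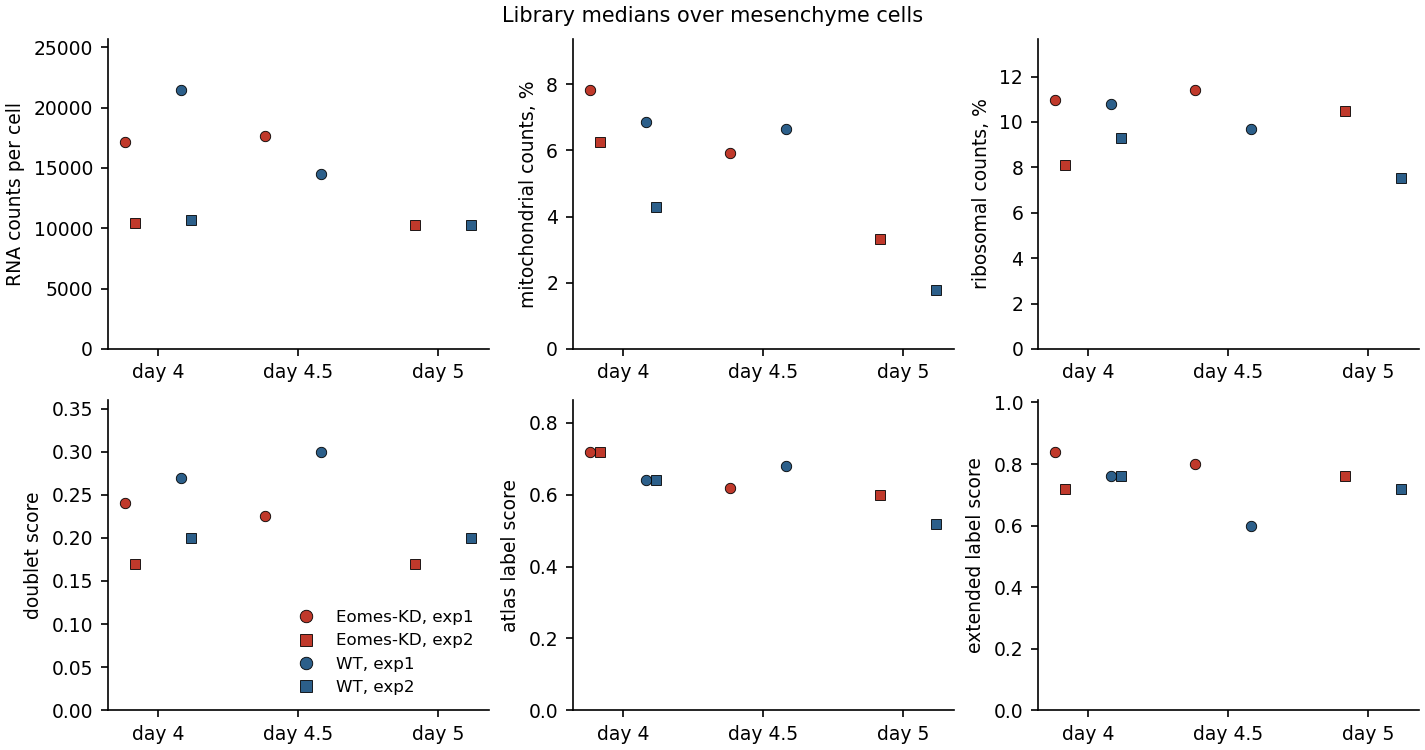
Medians over mesenchyme cells of RNA counts, mitochondrial and ribosomal percent of counts, doublet score, and both label scores (fractions of 25 atlas cells), 1 point per library by day, with all axes from 0. Red is Eomes-KD and blue WT, circles are exp1 and squares exp2. RNA counts group by experiment, at 10650 or less in exp2 and at 14492 or more in exp1, and the doublet score is lower in Eomes-KD in each pair.

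The single nearest atlas cell of each cell showed how varied the matches were. The 1991 cells matched 539 different atlas cells. For 45 cells drawn from each library, the expected number of different matches was 36.4 and 35.8 in Eomes-KD and 29.7 and 32.0 in WT at day 4. It was 35.3 in Eomes-KD and 41.8 in WT at day 4.5, and 40 in Eomes-KD and 27.5 in WT at day 5. In the WT library of day 5, the 10 most used atlas cells took 60.8% of its 51 cells, the highest share of the 8 libraries. At day 4, 45.2% and 46.9% of Eomes-KD cells fell on atlas cells that WT cells of the same experiment also matched, and 33.1% and 27.4% of WT cells on ones that Eomes-KD matched. These shares were lower later, at 8.33% in Eomes-KD and 4.82% in WT at day 4.5, and 8.89% in Eomes-KD and 19.6% in WT at day 5. WT libraries, however, matched 144 and 270 different atlas cells at day 4, 73 at day 4.5 and 30 at day 5. Fewer matched cells leave fewer to share, and the shares were not adjusted for this. They therefore do not show whether the conditions moved apart with time.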

How the data were processed

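The authors mapped the multiome reads to mm10 with Cell Ranger ARC 2.0.1, filtered cells on RNA, chromatin and doublet score (at most 1.25), and clustered both modalities together. The deposited table has 1 line per cell, and 20 of its 28 columns were used. RNA counts and genes are raw counts deposited per cell. Mitochondrial and ribosomal values are a percent of those counts, per the authors. The authors also deposited a doublet score and, as unitless scores, the positions on a UMAP. Label scores are a fraction of 25 atlas cells, deposited by the authors, who transferred labels to each library separately. Genes and chromatin were not analysed here.

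Cells were mapped to 14 libraries by library name (28 GEO samples, with RNA and chromatin counted apart), and the GEO labels were used for the day 5 libraries, which the table's own replicate column numbers otherwise. Cells per type, or mesenchyme cells per label, entered edgeR 4.0.16 (R 4.3.3, quasi-likelihood, no abundance trend, total cells as library size, features with 10 or more cells, Benjamini-Hochberg adjustment over all features tested, threshold 0.05), with day as a term. SEs follow from the F statistic. Library values were compared with exact permutation tests within days in Python 3.11.15. Samples of 1 experiment were collected on the same day, from staggered starts, per the study's methods, so the experiment number pairs them (correlation of deviations 0.504 at day 3.5 over 8 types and 0.747 at day 4 over 11 types). Tested on simulated data for 12 types (dispersion 0.2), edgeR called 89.1% of those set to a log2 change of -2 and 2.15% of those set to 0. For 9 labels within mesenchyme it called 32.3% of those changed by -2 and 57.8% of those changed by 2. A label is named if it held 5% of the mesenchyme of a library with 20 or more such cells or passed its test, and Allantois is always given. The cell type, lists and tests were chosen with earlier results of these data known. Total RNA counts ranged from 7262460 to 70753971 per library, and 3 cells, the limit taken for a count of 0, are 0.674% of the smallest one. Alternatives were TMM factors, DESeq2 1.42.0, limma 3.58.1, other filters, the experiment block, leaving out each library and, chosen after seeing the data, totals without HE and blood types. DESeq2 used size factors estimated from the counts of the types or labels in place of total cells.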

Additional observations from a re-analysis of the deposited data

Results flagged for a closer look

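At day 3.5 the share of mesenchyme was slightly higher in Eomes-KD in both pairs, by 0.165 and 0.0119 points. These gaps rest on 10 Eomes-KD cells against 9 WT cells, and on 5 against 13. The conditions overlapped at that day and the sign depended on the total used, so no direction is shown there. At day 4 the share was lower in both pairs (by -27.3 and -34.8 points), a change of -31.2 points. Set against days 4.5 and 5 (-12.4 and -3.08 points), the change from day 3.5 was -7.82 points. The edgeR interaction of day and condition for mesenchyme had an adjusted p of 0.934.

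Within mesenchyme, the extended label Allantois was lower in Eomes-KD in both pairs of day 4 (-1.95 and -5.35 points) and higher at days 4.5 and 5 (0.647 and 2.22), a change of 5.09 points. The later values rest on 2 of 108 cells in Eomes-KD against 1 of 83 in WT, and on 1 of 45 in Eomes-KD against 0 of 51 in WT, all within the limit of 3 cells. Lateral plate mesoderm was higher in Eomes-KD in both pairs of exp1 (9.45 and 17.7 points) and lower in both of exp2 (-6.43 and -7.71), a change of -20.7 points. Stage E7.75 was lower in both pairs of exp1 (-3.09 and -1.49 points) and higher in both of exp2 (10.7 and 9.93), a change of 12.6 points. Median RNA counts were lower in Eomes-KD in both pairs of day 4 (-4271 and -250.0) and higher at days 4.5 and 5 (3199 and 17.0), a change of 3868 counts, and genes per cell likewise (-572 and -142, then 515 and 56.0), a change of 642 genes. These differences between days or experiments were not tested, each rests on 4 pairs, and days 4.5 and 5 are from different experiments.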

How the results depend on the processing

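The share of mesenchyme over days kept its sign under all alternatives run but not its call, at -1.28 with TMM factors, -0.42 with DESeq2 (adjusted p = 0.590), -0.188 (arcsine scale) with limma, -1.45 in cells above the median RNA count, -1.38 in cells with an atlas score of 0.6 or more and -1.70 in days 3.5 and 4. Leaving out 1 library gave -1.92 to -1.10 over days, with the call lost without either library of day 4.5 (adjusted p = 0.0965 without Eomes-KD and 0.0964 without WT, edgeR). It gave -0.42 to 1.05 at day 3.5, -4.02 to -2.60 at day 4, 2.62 to 4.35 for the Eomes-KD step from day 3.5 to 4, and -14.5 to -11.1 points for the percent of cells. That percent had p = 0.0417 (permutation) without Eomes-KD day 3.5 exp1 or WT day 3.5 exp2, and differed by -20.1 points with yolk sac types left out. At day 3.5 the sign turned with TMM factors (-0.31) and with yolk sac types left out (-1.15). DESeq2 gave 1.84 at day 4.5 and 0.57 at day 5, and limma called day 4.5 (-0.193, arcsine scale). The Eomes-KD step from day 4.5 to 5 turned to 0.10 with the experiment block. Of 5 atlas labels called, 1 was called with TMM factors, 3 with DESeq2, 1 without a filter, 1 with the block, 1 at a score of 0.6 or more, and 0 to 3 without 1 library. Of 1 extended label called, the count was 0 with DESeq2, 2 without a filter, 3 with the block, 2 in all libraries, and 0 to 3 without 1 library. Signs turned for labels and stages not called: Pharyngeal mesoderm with DESeq2 (-0.22) and without 1 library (-1.11 to 1.37), lateral plate mesoderm with TMM factors (-0.21), DESeq2 (-0.39), in all libraries (-0.0075) and without 1 library (-0.019 to 0.13), E7.5 (-0.12) and E8.25 (-0.00049) with TMM factors, and E8.5 with DESeq2 (0.29). Without 1 library E8.25 ran from -0.76 to 1.13 and E8.5 from -2.67 to 1.69. As a difference from the other cells of the library, mitochondrial percent (-0.095), atlas score (-0.0533), extended score (-0.0667), UMAP 1 (1.10) and UMAP 2 (-2.55) turned. Without 1 library, RNA counts ran from -1478 to 2114, genes from -171 to 314 and UMAP 2 from -0.016 to 0.41. The cause of these changes was not tested. The block changed no other call than those given here and in the report. Clusters gave no alternative, with all cells in 1 cluster, and stages at a score of 0.6 or more could not be fitted (150 cells). The number of cells limits day 3.5 (5 to 13 per library) and day 5 (45 and 51).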
